A study of Caenorhabditis elegans with 2 samples.

Results

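The P granule component genes of Caenorhabditis elegans were examined for binding of APTF-2, a transcription factor of the AP-2 family. They were taken by name as components of P granules, with earlier results of these data known: deps-1, pgl-1, pgl-3, glh-1, glh-2, glh-4, car-1 and cgh-1, which are 8 of 19973 protein-coding genes on the nuclear chromosomes. APTF-2 was mapped by ChIP-seq, in which DNA bound by a protein is recovered with an antibody and read by sequencing. The worms were of strain RW12304, in which CRISPR placed a TY1, EGFP and 3xFLAG tag at the endogenous aptf-2 locus (allele st12304), and the precipitation was directed at GFP. Whole young adults were taken at 61.5 h after synchronisation as starved L1 larvae, in 2 biological replicates that form the only group. No second condition and no precipitation from worms without the tag were analysed here, so a gene called bound below has a summit of the conservative list, described below, in its promoter window, and this is no difference from a control strain. In whole animals, strong binding in few cells and weak binding in many cannot be told apart. The files were peak lists without read counts, so the depth of each replicate is unknown.

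P granules are condensates of RNA and protein that lie at the nuclear envelope of germ cells and pass into the germline founder cells of the embryo. PGL-1 and PGL-3 are scaffold proteins with RGG boxes that assemble into condensates with RNA, and GLH-1, GLH-2 and GLH-4 are DEAD-box helicases related to Vasa. DEPS-1 is needed for normal P granule assembly and for RNA interference in the germline. CAR-1, an Sm-like protein of the Scd6 family, and CGH-1, a DEAD-box helicase of the DDX6 family, act together in the storage and protection of germline mRNAs and are found in P granules and in other RNA granules.

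Sequences are shown for pgl-1, pgl-3 and cgh-1, which had no summit of the conservative list in the promoter window. Part of the conservative-list peak nearest to pgl-3 is shown beside them. Each was read from the RefSeq genome of build WBcel235, which has the coordinates of ce11, 5′ to 3′ on the strand of the member. The pgl-1 window (chrIV:6977643-6977843, minus strand) lay in the 5′ part of the divergent gene him-3. The pgl-3 window (chrV:4754955-4755155, plus strand) lay in a coding exon of the upstream gene hil-4, and the cgh-1 window (chrIII:7498112-7498312, minus strand) between genes. These windows hold 100 bases on each side of the strongest ranked-list summit in the promoter window. The line named hil-4 start (chrV:4754195-4754312, plus strand) begins 100 bp before the summit of the nearest conservative-list peak and stops before the hil-4 transcript. Capitals mark 11 bases at the summit for pgl-1 and cgh-1, the second copy of a tandem repeat for pgl-3 and both matches to the E2F site for the hil-4 start.
pgl-1: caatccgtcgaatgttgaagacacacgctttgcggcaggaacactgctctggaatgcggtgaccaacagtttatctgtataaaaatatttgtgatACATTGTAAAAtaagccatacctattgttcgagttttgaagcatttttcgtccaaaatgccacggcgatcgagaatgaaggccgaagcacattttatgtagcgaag
pgl-3: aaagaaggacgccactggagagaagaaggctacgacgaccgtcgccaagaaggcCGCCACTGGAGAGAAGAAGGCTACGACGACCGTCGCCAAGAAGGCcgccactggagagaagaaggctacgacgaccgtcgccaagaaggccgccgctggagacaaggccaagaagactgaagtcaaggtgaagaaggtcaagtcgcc
cgh-1: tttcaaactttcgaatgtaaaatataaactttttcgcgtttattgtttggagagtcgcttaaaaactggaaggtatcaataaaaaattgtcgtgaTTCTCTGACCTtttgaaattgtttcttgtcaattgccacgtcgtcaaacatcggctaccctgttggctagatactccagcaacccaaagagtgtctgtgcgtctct
hil-4 start: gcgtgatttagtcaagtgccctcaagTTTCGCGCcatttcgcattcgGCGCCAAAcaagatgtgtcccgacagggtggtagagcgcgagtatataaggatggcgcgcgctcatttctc
The pgl-3 window held a repeat unit of 45 bp over a tract of 139 bp, and its GC content of 59.2% was higher than that of 99.3% of genes at their strongest ranked summit. The windows of pgl-1 and cgh-1 had GC contents of 41.8% and 38.3%, against a median of 38.8% over genes. The hil-4 start held 2 E2F matches, and the other printed windows held none of the 4 motifs described below.

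The deposited lists differ in how many peaks they keep. The conservative list, made from both replicates, held 892 peaks with an IDR score of 830 or more. IDR, the irreproducible discovery rate, is low where the compared lists all place a peak at high and like ranks. Its scaled score of at most 1000 rises as the rate falls. The ranked list behind it held 94866 peaks with scores from 31 upwards, most of them far below that limit. The replicates had thresholded lists of 350 and 403 peaks and ranked lists of 54777 and 51529 peaks. These lists used the alignments of the named replicate and not of the other, so their IDR scores do not compare the replicates. Signal is the value that the authors' caller gave each peak, on a scale that is not stated, so its size is read within a list only. A summit counted for a gene when it lay at most 1000 bp before or 200 bp after any of its protein-coding starts, which is called the promoter window.

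A conservative-list summit stood in the promoter window of 2 of the 8 genes, deps-1 and glh-2. Over all protein-coding genes this held for 3.15%. The other thresholded list made from both replicates had a summit at 1 of the 8, deps-1, against 3.07% of genes. The thresholded list of replicate 1 had a summit at 1 of the 8 against 1.46% of genes, and that of replicate 2 at 1 of the 8 against 1.7%, again at deps-1. No test was made on these counts, since the genes were proposed with earlier results of these data known.

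The gene deps-1 (WBGene00022034) lies on the plus strand of chromosome I at 506473 to 509056 with starts 190 bp apart. Its peak in the conservative list, at 506253 to 506427, had a signal of 422 and an IDR score of 1000, and ranked 19 of 892 by signal. In replicate 1 the peak had a signal of 160.5, with rank 34 of 350 in the thresholded list. In replicate 2 the signal was 256, with rank 13 of 403. The replicates thus both listed deps-1, and the IDR score was 1000 in each. The summits of replicates 1 and 2 lay 3 bp and 4 bp from that of the combined list, which stood 115 bp upstream of the first start. The peak was 175 bp wide, as narrow as 7.17% of conservative-list peaks, while 89.7% of them had the median width of 296 bp. A pair of weaker ranked peaks stood in the same window. The peak 795 bp upstream of the first start, in a coding exon of Y65B4BL.4, had a signal of 43.4 and an IDR score of 130, and the peak 196 bp downstream of the second start, in a deps-1 coding exon, had 30.6 and 88.

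The deps-1 peak lay between divergent starts. Y65B4BL.4, on the other strand, starts 223 bp from deps-1, and the summit stood 108 bp upstream of it against 115 bp for deps-1. The same summit therefore counts for both genes, and if only the closest start is credited it goes to Y65B4BL.4, leaving deps-1 without a summit.

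The gene glh-2 (WBGene00001599), on the plus strand of chromosome I at 6513928 to 6517507, had the other conservative-list summit. Its peak at 6513783 to 6514078 had a signal of 91.5 and ranked 584 of 892, so it stood in the weaker part of the list, and its IDR score was 913. The summit lay 3 bp downstream of the annotated start, in the 5′ untranslated exon, and 101 bp upstream of the divergent gene C55B7.11. In the ranked list of replicate 1 the glh-2 peak had a signal of 42.7 and an IDR score of 416. In that of replicate 2 it had a signal of 39.95 and an IDR score of 43. Both summits lay within 12 bp of the combined summit, at ranks 1208 of 54777 and 1503 of 51529 by signal, but neither passed into the thresholded list of its replicate. The gene was also absent from the other thresholded list, where its score of 702 in the ranked list behind it lay below 830.

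**Figure D1:**
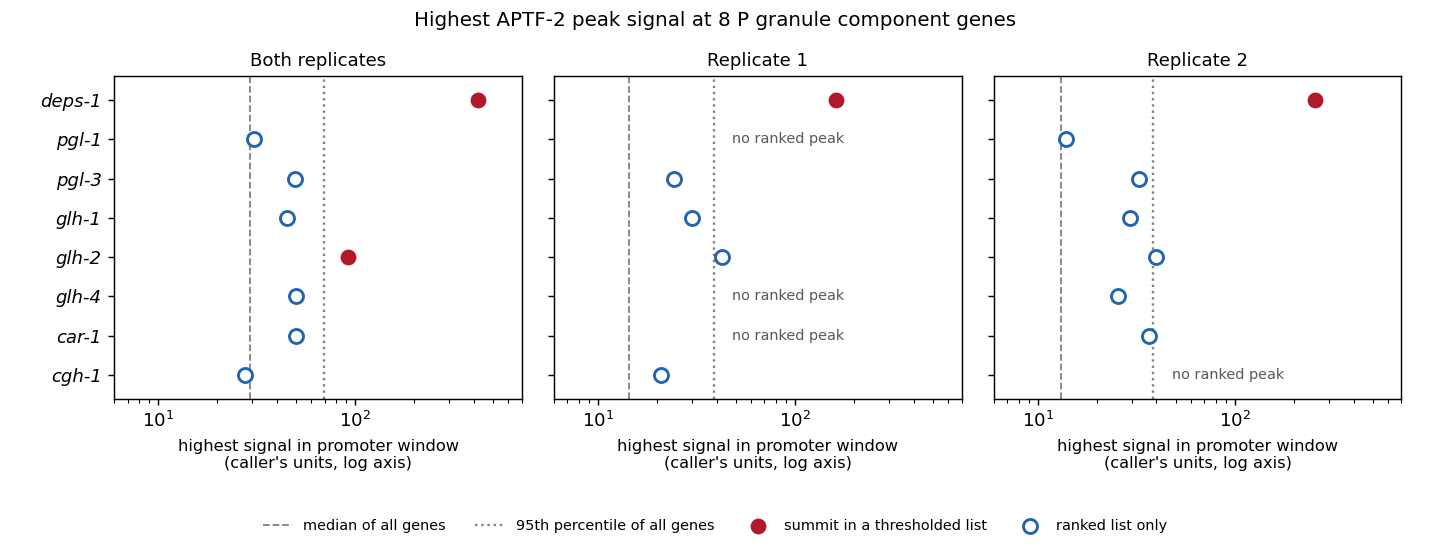
Highest peak signal in the promoter window of each gene (log axis, in the units of the authors' caller) in the ranked lists of both replicates, replicate 1 and replicate 2; filled points also had a thresholded summit (the conservative list in the left panel), and lines give the median and 95th percentile of all protein-coding genes, with genes without a peak as 0. The deps-1 point stands at 422, 160.5 and 256, apart from the other genes in every panel, and glh-2 is next at 91.5 in the left panel.

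The 6 other genes had peaks in the ranked list only. A ranked peak of any score is common, since 75.1% of all protein-coding genes had a summit in the promoter window in the ranked list of both replicates, 57.1% in that of replicate 1 and 55.1% in that of replicate 2. All 8 of the P granule component genes had such a summit in the first, 5 in the second and 7 in the third. With the IDR score relaxed to 540, equal to a global IDR of 0.05, the 2 genes deps-1 and glh-2 remained the only ones of the 8, against 5.3% of all genes.

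Of the other GLH helicase genes, glh-1 (WBGene00001598, chromosome I, 6854478 to 6857536) had its strongest ranked peak 135 bp upstream, with a signal of 45.1 and an IDR score of 75. A further peak stood 637 bp upstream in a coding exon of sacy-1, with a signal of 32.2. The replicates disagreed on which was higher. In replicate 1 the far peak had a signal of 29.9 and the near one 13.4, and in replicate 2 the near peak had 29.4 and the far one was not listed. The sequence at the near summit was repeated: 7 other places on chromosomes I, II and III matched it over 100 bp or more at 90% identity or more. No such match elsewhere was found for the summit windows of the other 7 genes.

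The gene glh-4 (WBGene00001601, chromosome I, 3727027 to 3731179) had a ranked peak 461 bp upstream with a signal of 50.3 and an IDR score of 165. Replicate 2 listed it with a signal of 25.4, 416 bp upstream, and replicate 1 did not list it in its own ranked list. The other ranked list of both replicates also had no peak in the glh-4 window. The nearest conservative-list summit was 139702 bp away, the farthest of the 8 genes. For glh-1 this distance was 7286 bp.

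Of the PGL scaffold genes, pgl-1 stood lower than pgl-3 in the promoter window. In a narrower window of 500 bp upstream to 100 bp downstream they were close, with highest signals of 30.6 and 32.3. For pgl-1 (WBGene00003992, chromosome IV, 6974441 to 6977318, minus strand) the only ranked peak in the window had a signal of 30.6 and an IDR score of 87. Its summit lay 425 bp upstream, in an intron of him-3, a gene of the meiotic chromosome axis whose start is 190 bp from that of pgl-1. Replicate 2 listed a peak with a signal of 13.9 and an IDR score of 13, its summit 107 bp away in a him-3 coding exon, and replicate 1 listed none. The level was near the median of all genes, at percentile 52.8 in the list of both replicates. The percentile of a gene is the share of all protein-coding genes with a lower highest signal. It depended on the window. With the same signal, pgl-1 stood at 70.2 with 500 bp upstream to 100 bp downstream and at 31.8 with 2000 bp upstream to 500 bp downstream.

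For pgl-3 (WBGene00003994, chromosome V, 4755979 to 4758587) 3 ranked peaks lay in the window. The strongest, 924 bp upstream, had a signal of 49.7 and an IDR score of 288, and it is the one over the tandem repeat in hil-4, a gene for a linker histone H1-like protein. It had a signal of 24.2 in replicate 1 and 28.7 in replicate 2. A peak 460 bp upstream, between genes, had a signal of 30.6 in both replicates together and of 32.5 in replicate 2 alone, and a peak 50 bp downstream of the start had 32.3. None reached an IDR score of 540. A conservative-list peak lay outside the window, 1684 bp upstream of pgl-3 and 18 bp from the hil-4 start, with a signal of 99.0 and an IDR score of 1000. Part of the sequence of this peak is printed as the hil-4 start. The peak counts for pgl-3 only if the window is widened to 2000 bp upstream.

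Of the pair of mRNA storage genes, car-1 (WBGene00012484, chromosome I, 12904470 to 12906040) had a ranked peak 382 bp upstream with a signal of 50.03 and an IDR score of 390, the third highest score of the 8. It overlapped a far weaker one 167 bp upstream, with a signal of 7.3. The peak of replicate 2, with a signal of 36.8, had its summit between them, 224 bp upstream, and replicate 1 listed no peak in the window. The stronger of the combined summits also lay 639 bp upstream of the divergent gene coa-5.

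For cgh-1 (WBGene00000479, chromosome III, 7495320 to 7497832, minus strand) the only ranked peak in the window lay 380 bp upstream, with a signal of 27.6 and an IDR score of 75. It had a signal of 20.8 in replicate 1 and was not listed in replicate 2. Among the 8 genes this was the lowest level in the promoter window in the list of both replicates, at percentile 46.9. A stronger ranked peak stood just past the end of the window, 278 bp downstream of the start in a cgh-1 coding exon. It had a signal of 78.4 and an IDR score of 719, which is below the limit of the conservative list. With 2000 bp upstream to 500 bp downstream, which takes in this peak, cgh-1 stood at percentile 95.25.

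**Figure D2:**
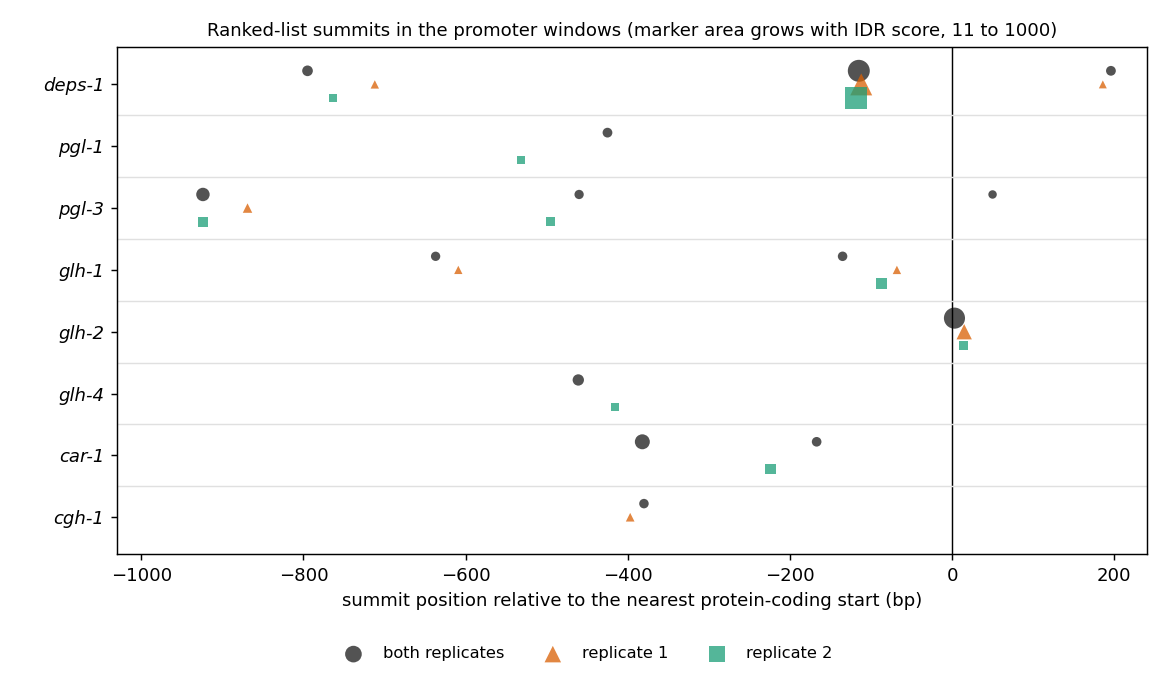
Summits of the ranked lists in each promoter window, by distance in bp from the nearest protein-coding start of the named gene itself (negative is upstream). Circles are both replicates together, triangles replicate 1 and squares replicate 2, and marker area grows with the IDR score. At deps-1 the 3 large markers stand 112 to 119 bp upstream and at glh-2 the markers stand 3 to 15 bp downstream. At pgl-1 the marker of replicate 2 stands apart from that of both replicates, and at car-1 it stands between the circles.

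Both replicates placed a summit within 12 bp of the combined one at deps-1 and glh-2 only. At pgl-3 the summit of replicate 2 coincided with the combined one and that of replicate 1 lay 55 bp away, and at glh-1 they lay 48 bp and 67 bp away. For cgh-1 the gap was 17 bp in the replicate that listed a peak, for glh-4 45 bp and for pgl-1 107 bp. For car-1 it was 158 bp from the stronger of the combined summits. A peak that is missing from the ranked list of a replicate is not shown to be absent from that replicate.

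Set against all genes by signal, the 8 spread from the middle to the top of the range. The median of their highest signals was 49.9, against 29.2 over all protein-coding genes with genes without a peak as 0 and 35.3 over genes with a peak. The median of their percentiles was 84.8, and 7 of the 8 lay above the median gene. The median of their highest IDR scores was 226.5, against 94 over genes with a peak. On that scale glh-1 (75), pgl-1 (87) and cgh-1 (75) lay below 94, and the others lay above it. By gene, deps-1 stood at percentile 99.9, glh-2 at 97.6, glh-4 at 85.2, car-1 at 84.9, pgl-3 at 84.6 and glh-1 at 79.5. The order among glh-4, car-1 and pgl-3 rests on signals from 49.7 to 50.3 and differs by list. In replicate 1 the median percentile was 71.3, with pgl-1, glh-4 and car-1 at 0 for want of a peak, and in replicate 2 it was 89.4, with cgh-1 at 0. Within the promoter window, deps-1 and glh-2 were the only ones of the 8 above the 95th percentile in any of these lists. In replicates 1 and 2, deps-1 stood at 99.8 and 99.9 and glh-2 at 96.4 and 95.6.

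**Figure D3:**
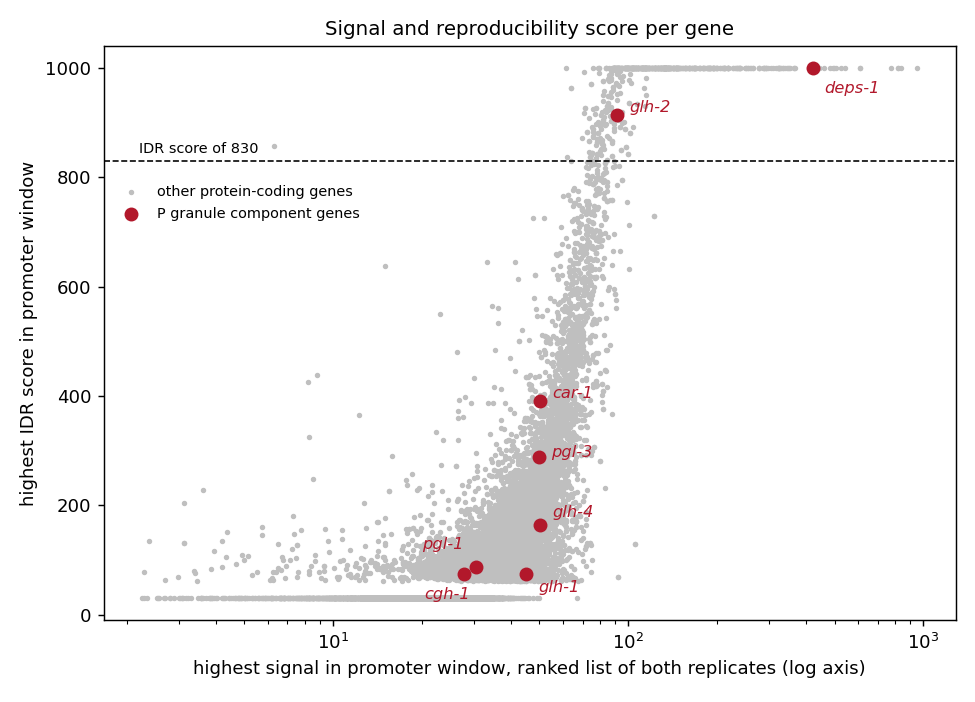
Highest IDR score against highest signal (log axis) in the promoter window, in the ranked list of both replicates, for the 8 P granule component genes (red, named) and the other protein-coding genes with a ranked peak (grey); the dashed line marks the IDR score of 830. The points of deps-1 and glh-2 lie above the line at scores of 1000 and 913, and the other 6 lie at 390 or below.

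A divergent protein-coding start within 1000 bp was present at 3 of the 8 genes, deps-1, pgl-1 and glh-2, and at 17.7% of all genes. Of all genes with such a neighbour 7.73% had a conservative-list summit, against 2.17% of genes without one. A shared window holds a summit for both genes, so these shares count some summits more than once. Both bound genes belonged to the class with a divergent neighbour, as did 273 of the 629 protein-coding genes with a conservative-list summit. Many worm transcripts are trans-spliced, so an annotated start can lie downstream of the point where transcription begins.

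Motifs were searched on both strands in the promoter from 250 bases before to 50 after the most upstream start. The AP-2 palindrome GCCNNNGGC, known from AP-2 proteins of other animals, stood in 0 of the 8 promoters and in 1.28% of all. The looser form, with C or G as its first and last base, also stood in 0 of the 8 and in 4.49% of all. The E2F site, written TTTCCCGC, TTTCGCGC, TTTGCCGC or TTTGGCGC, stood in 2 of the 8, glh-2 and glh-4, and in 4.67% of all. The SP1 site GGGCGG stood in 0 of the 8 and in 7.81% of all. In windows of 100 bases on each side of the strongest ranked summit, the AP-2 forms stood again at 0 of the 8, E2F at glh-2 alone and SP1 at glh-4 alone, against 1.46% and 5.03% (AP-2), 4.89% and 5.69% of genes. The E2F match of glh-2 lay 5 to 12 bases before the start, and the window of deps-1 held none of the 4 motifs. At all 892 conservative-list summits the shares were 2.69% and 11.7% for the AP-2 forms, 12.2% for E2F and 11.5% for SP1. A match is a description of the letters and not evidence of a site. These matches overlapped no match of another motif.

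The genes most like each bound gene were found from the conservative-list signal and the signals of the overlapping peak in the ranked lists of both replicates, over 625 genes with all 3 values. Closest to deps-1 were K12H4.5 (conservative-list signal 425.5, distance 0.0732 on the log10 scale), rpl-35 (418.5) and F08F3.6 (440.2). Closest to glh-2 were aipl-1 (87.3, distance 0.0216), ymel-1 (87.0) and nhr-119 (87.5).

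Further genes of germ granules were described from 6 lists with 53 genes, of which 52 were found in the annotation. A conservative-list summit stood at 7 of these 52 (13.5%), against 2 of the 8 above and 3.15% of all protein-coding genes, and 50 of the 52 had a ranked peak. The median percentile of the 52 was 70.5, below the 84.8 of the 8 genes above; neither difference was tested. The lists were written with earlier results of these data known.

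Among other P granule genes and relatives 1 of 11 was bound, against 3.15% of all protein-coding genes. This was csr-1, an Argonaute gene, with a signal of 240 in the conservative list, 119.7 in replicate 1 and 111.8 in replicate 2. The remaining family members differed widely, a remark made after their values were seen: pgl-2 had a ranked peak 60 bp downstream of its start with a signal of 81.6 and an IDR score of 620, and glh-3 had no ranked peak in its window. Of 10 genes of Mutator foci, where small RNAs are amplified, mut-15 alone was bound, with a signal of 145 at a peak shared with the fibrillarin gene fib-1. The lists for Z granules and SIMR foci had 0 of 4 and 0 of 3 genes bound. These lists are too short to read a count of 0 against the share of 3.15%. Their strongest ranked peaks were at wago-4 (signal 69.4, IDR score 544) and simr-1 (44.6).

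Among the decapping and repression genes, which include partners of CAR-1 and CGH-1, 3 of 16 were bound, against 3.15% of all protein-coding genes. The strongest was nhl-2, a gene for a TRIM-NHL protein, with a signal of 133 at a peak 829 bp upstream, shared with tag-340. The GW182 gene ain-1 had 94.8, with its summit 990 bp upstream near the edge of the window, and edc-4, an enhancer of decapping, had 81.0 with an IDR score of 852. Of these 3, nhl-2 was in the thresholded list of replicate 2 and the others in that of neither replicate. Of 8 genes for P granule segregation in the embryo, 2 were bound, against the same 3.15%. The RNA-binding protein gene mex-1 had a pair of peaks. The stronger, with a signal of 148, lay 915 bp upstream and was shared with W03C9.5 and rab-7. The other, with 109, lay 163 bp upstream and was shared with W03C9.5. The gene pos-1 had 98.2 at a peak shared with vha-18. Among these 7 genes, csr-1, mut-15 and mex-1 were in the thresholded lists of both replicates, as deps-1 was. Over all protein-coding genes, 1.46% had a summit in the thresholded list of replicate 1 and 1.7% in that of replicate 2.

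**Figure D4:**
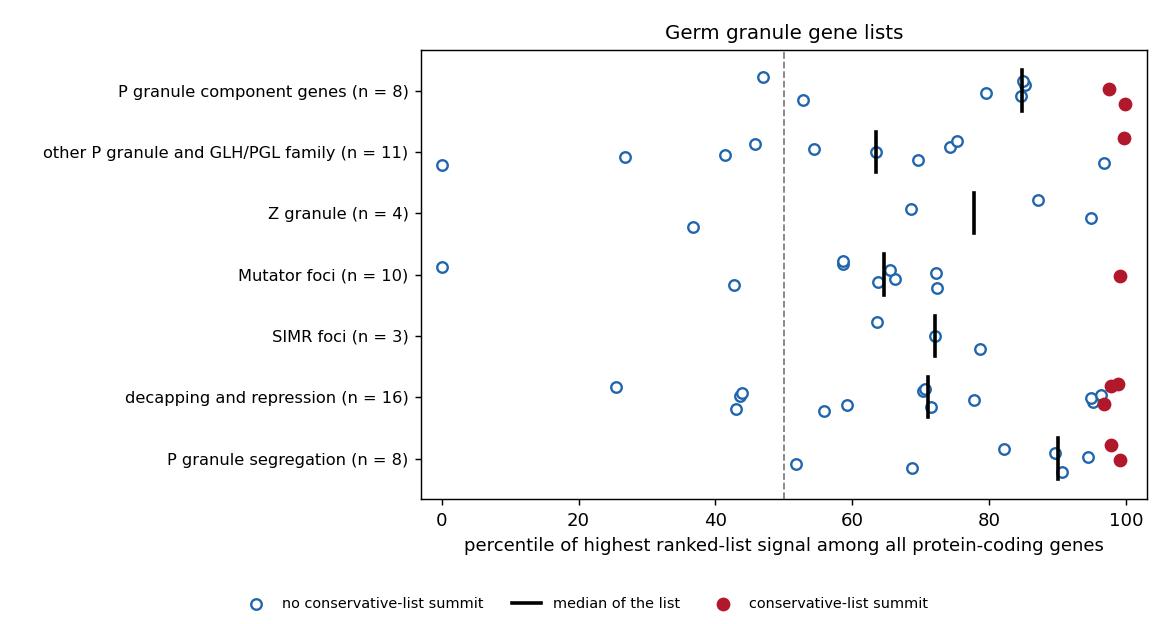
Percentile of the highest ranked-list signal of each gene (x axis, among all protein-coding genes) for the 8 P granule component genes and the 6 further lists; filled points had a conservative-list summit, black bars are list medians and the dashed line is the percentile of 50. The bar of the 8 genes stands at 84.8, that of P granule segregation at 90.1 and that of the other P granule genes at 63.4.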

How the data were processed

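ChIP-seq peak lists from 2 biological replicates of 1 group were used, as grouped by the labels. The lists, on assembly ce11, were made by the authors from 1 replicate's alignments, or those of both, and an additional file that their fold-change tracks also use, per the deposited README. Thresholded lists draw on 1 more file of unstated content. Caller and aligner: not given in the sources used here. Signal, as deposited for each peak, is a value of the authors' caller, and the deposited score is the scaled IDR. Chromatin was sonicated to 200 to 800 bp, per the labels. Depth is unknown. A deeper library gives more and higher peaks, so sizes of signal were read within a list only, and no interval was computed. In the ranked lists of both replicates, 16 columns hold values of single inputs without a replicate name and were not used.

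Peak ends lay within the lengths of all 6 nuclear chromosomes of WBcel235. Starts (29314) came from Ensembl release 115. A summit is the start of a peak plus its point source, written 1-based. Python 3.11.15 with numpy 2.4.6, pandas 2.3.3, matplotlib 3.10.9 and BLAST 2.17.0 were used, and the assignment was tested on simulated data. The members and lists were chosen with earlier results of these data known, and no test was run. Named genes were the 8 members, genes sharing a summit, the 3 most alike per bound member, bound genes of the further lists and the strongest per list. The gene ntl-1 matched no annotated symbol. Sequences of genes on chromosome I are not reported here, and no protein sequences were used.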

Additional observations from a re-analysis of the deposited data

How the results depend on the processing

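The count of 2 members with a summit fell to 1 in the other thresholded list, in the stronger 50% of conservative-list peaks and at an IDR score of 1000 (each time deps-1 was left), and to 1 when each summit went to its nearest start (glh-2 was left). Leaving out a replicate here means using the deposited lists of the other replicate, whose values are already given above. In both cases the count was 1 (deps-1). It stayed at 2 or rose to 3 under the other 7 alternatives, reaching 3 with pgl-3 in the window of 2000 bp upstream. Over all genes the share of 3.15% was 3.07% in the other thresholded list, 1.92% in the stronger 50% and 2.31% at an IDR score of 1000. It was 2.35% with the nearest start only and 4.21% in the window of 2000 bp upstream, where the member count was 3. At an IDR score of 540 or more it was 5.3%, and with a replicate left out 1.46 to 1.7%. The median percentile of 84.8 ranged from 71.3 to 89.4 with a replicate left out and moved by less than 12.8 points, the SD of those 2 values, under the other 5 alternatives. Motif counts moved between window types for E2F (from 2 to 1) and SP1 (from 0 to 1). The causes were not tested. No paired analysis was possible because there is only 1 group. Without depth, a missing peak cannot be told from a peak below detection.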
